A study of Mus musculus with 8 samples.

Results

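The hair follicle transcription factors described here are the 9 genes *Foxc1*, *Lhx2*, *Sox9*, *Nfatc1*, *Gata6*, *Gata3*, *Runx1*, *Runx2* and *Tbx1*, chosen by symbol from the 18834 genes listed in the single-cell tables. The bulk tables held a row for 8 of the 9, with none for *Tbx1*. *Foxc1* and *Runx2* were selected on their low counts in sorted *Troy*-EGFP+ basal cells, so all bulk values of the 9 genes in EGFP+ and EGFP- cells are given as a description, with no test. Their position in the follicle was then read in single cells of other libraries, where the rule set no threshold, although the genes were listed with earlier results of these plates known.

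The libraries came from adult C57BL/6 mice of 7 to 9 weeks carrying the *Troy*-EGFP-IRES-CreERT2 knockin, in which EGFP and a tamoxifen-inducible Cre replace the protein-coding region of *Troy* (listed as *Tnfrsf19*). EGFP therefore follows the *Troy* promoter, and every mouse used here, controls included, carried the altered locus. Bulk mRNA was sequenced from epidermal cells of 2 such mice, each sorted into viable (DAPI-) cells, ITGA6bright EGFP+ basal cells and ITGA6bright EGFP- basal cells. Single cells of 4 further libraries from *Troy*-EGFP mice (EGFP mice 1 to 4) and of 2 mice homozygous for both the knockin and Rosa26-LSL-tdTomato, collected 7 days after 5 mg of tamoxifen (traced mice 1 and 2), were sorted into plates of 384 wells. The plates mixed EGFP+ and EGFP- or tdTomato+ and tdTomato- cells, the sort gate of a well was not used here, and the share of wells in a class can therefore follow the sort.

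The bulk libraries held 133072 to 396380 counts without mitochondrial genes. Of 2304 wells, 1109 held at least 1000 transcripts (estimated molecules) without spike-ins and mitochondrial genes: 71, 129, 218 and 262 in EGFP mice 1 to 4 and 229 and 200 in traced mice 1 and 2. All plates shared the same 384 well numbers, and 0 pairs of wells had identical profiles. EGFP mouse 1 stood apart: in 44 of its 71 wells over 10% of the transcripts came from 4 genes that the study used to remove wells, as markers of necrotic cells (*Mir1950* and *Kcnq1ot1*) or of non-epidermal cells (*Lipi* and *Mid1*), against 0 wells of the traced mice and 6, 27 and 23 wells of EGFP mice 2, 3 and 4.

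The hair follicle of resting (telogen) skin holds, in its lower part, the bulge and hair germ with the stem cells that rebuild the hair, and in its upper part the isthmus, the junctional zone, the sebaceous duct and the infundibulum that opens into the interfollicular epidermis. The genes belong to several families of DNA-binding proteins. *Sox9* (an HMG-box factor), *Lhx2* (a LIM homeodomain factor), *Nfatc1* (a factor switched on through calcineurin), *Tbx1* (a T-box factor) and *Foxc1* (a forkhead factor) are known for specifying follicle stem cells or keeping them quiescent. *Gata6* is known from the junctional zone and sebaceous duct, and *Gata3* from the inner root sheath and from differentiating epidermis. *Runx1* acts in blood formation and in the activation of follicle stem cells, and *Runx2* is best known as the master factor of bone formation. GATA3 and the RUNX proteins also act in T cells, which live in mouse epidermis.

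On GRCm38, the build named in the submitters' processing notes (as mm10 or GRCm38), the GENCODE annotation places *Foxc1* on chr13:31806633-31812476 (plus strand), *Lhx2* on chr2:38339281-38369733 (plus), *Sox9* on chr11:112782224-112787760 (plus), *Gata3* on chr2:9857078-9890034 (minus), *Runx1* on chr16:92601466-92826149 (minus), *Runx2* on chr17:44495987-44814797 (minus) and *Tbx1* on chr16:18580979-18590671 (minus). The 250 bases before a RefSeq start site (GRCm38.p6, coding strand, 5′ to 3′) are printed for *Lhx2* and *Tbx1*, since most wells with *Tbx1* also held *Lhx2*, and for *Foxc1*, whose transcripts were found in both lower and upper follicle wells. These windows are chr2:38339031-38339280, chr16:18590672-18590921 and chr13:31806396-31806645, and capitals mark matches to 7 motifs searched on both strands.

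Lhx2: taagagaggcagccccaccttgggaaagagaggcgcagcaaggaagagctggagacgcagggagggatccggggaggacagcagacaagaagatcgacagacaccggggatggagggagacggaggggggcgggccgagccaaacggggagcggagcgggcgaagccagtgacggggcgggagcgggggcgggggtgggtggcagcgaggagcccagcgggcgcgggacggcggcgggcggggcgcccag
Tbx1: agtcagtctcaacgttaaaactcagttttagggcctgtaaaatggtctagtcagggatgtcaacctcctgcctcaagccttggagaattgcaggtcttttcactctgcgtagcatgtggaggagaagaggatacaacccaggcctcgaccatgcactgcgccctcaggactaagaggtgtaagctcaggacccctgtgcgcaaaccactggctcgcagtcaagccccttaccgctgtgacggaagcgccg
Foxc1: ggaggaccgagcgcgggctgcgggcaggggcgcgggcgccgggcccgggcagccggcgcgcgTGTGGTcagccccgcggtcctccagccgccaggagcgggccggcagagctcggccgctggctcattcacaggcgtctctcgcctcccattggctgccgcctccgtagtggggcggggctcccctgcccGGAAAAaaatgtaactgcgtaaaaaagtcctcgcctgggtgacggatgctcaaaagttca

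The motifs were TGTGGT for RUNX, AGATAA for GATA factors, ACAAAG for SOX, TGTTTAC for FOX, TAATTA for LHX, GGAAAA for NFAT and TCACAC for T-box proteins. The *Foxc1* window held TGTGGT at 188 to 183 bases and GGAAAA at 60 to 55 bases before the start, letters that 14.0% and 20.4% of 32851 promoter windows of the same length held. The printed *Lhx2* and *Tbx1* windows held none of the 7; each of these genes has a further RefSeq start, not printed, whose window held GGAAAA for *Lhx2* and none of the 7 for *Tbx1*. The windows differed in CpG content, with 29 CpG pairs for *Foxc1*, 25 for *Lhx2* and 10 for *Tbx1* (24 and 17 at the further starts), against a median of 6 over all windows. A match is a description of the letters and not a site of binding.

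In the bulk libraries most of the 9 genes had fewer counts in EGFP+ than in EGFP- basal cells, and *Gata3* had more. *Foxc1* had 64 and 96 counts in EGFP- cells of mouse 1 and mouse 2, 12 and 5 in EGFP+ cells and 59 and 81 in viable cells. In counts-per-million (CPM) units this was 569.9 and 666 in EGFP- cells, 37.9 and 27.2 in EGFP+ cells and 251 and 218 in viable cells. The EGFP+ libraries lay below all others, and against EGFP- cells the fitted log2 fold was -4.18 ± 0.36 (SE), or 18.1-fold. *Runx2* had 23 and 45 counts in EGFP- cells, 7 and 4 in EGFP+ cells and 18 and 18 in viable cells, or 205 and 312 CPM, 22.1 and 21.8 CPM and 76.4 and 48.5 CPM. Its log2 fold was -3.54 ± 0.44, and its order of populations was that of *Foxc1*.

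The bulge factors were also low in EGFP+ cells. *Lhx2* stood at 232 and 229 CPM in EGFP- cells, 22.1 and 32.7 in EGFP+ cells and 429 and 275 in viable cells, with a log2 fold between the sorted basal populations of -3.11 ± 0.44. Its highest level was in viable cells rather than in EGFP- basal cells. *Sox9* stood at 2128 and 4329 CPM in EGFP- cells, 732 and 959 in EGFP+ cells and 1919.5 and 2146 in viable cells, a log2 fold of -1.94 ± 0.36. *Nfatc1* stood at 151 and 305 CPM in EGFP- cells, 34.7 and 59.9 in EGFP+ cells and 84.9 and 43.1 in viable cells, a log2 fold of -2.37 ± 0.44. For *Nfatc1*, unlike *Sox9*, the level of viable cells overlapped that of EGFP+ cells.

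*Gata6* stood at 169 and 624 CPM in EGFP- cells, 25.3 and 76.3 in EGFP+ cells and 140.1 and 232 in viable cells, a log2 fold of -3.14 ± 0.54. *Gata6* was uneven between the EGFP- libraries, yet in each mouse the order of the populations was the same. Its fold was -1.89 without the EGFP- library of mouse 2, -3.78 without that of mouse 1, -2.42 without the EGFP+ library of mouse 1 and -3.96 without that of mouse 2. Without the EGFP- library of mouse 2 the folds of *Sox9* and *Nfatc1* were -1.33 and -1.74. *Gata3* went the other way, with 686 and 555 CPM in EGFP- cells, 2027 and 1956 in EGFP+ cells and 1333 and 1602 in viable cells, a log2 fold of 1.69 ± 0.31. *Runx1* had few counts, 7 and 15 in EGFP- cells, 7 and 9 in EGFP+ cells and 19 and 25 in viable cells, with a log2 fold of -1.37 ± 0.53. Over all 4605 genes tested, 4.02% were called lower and 3.00% higher in EGFP+ cells by edgeR's quasi-likelihood test, and 6 of the 8 listed genes were among the lower and 1 among the higher. The rule used this contrast, so nothing is read from those counts.

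**Figure D1:**
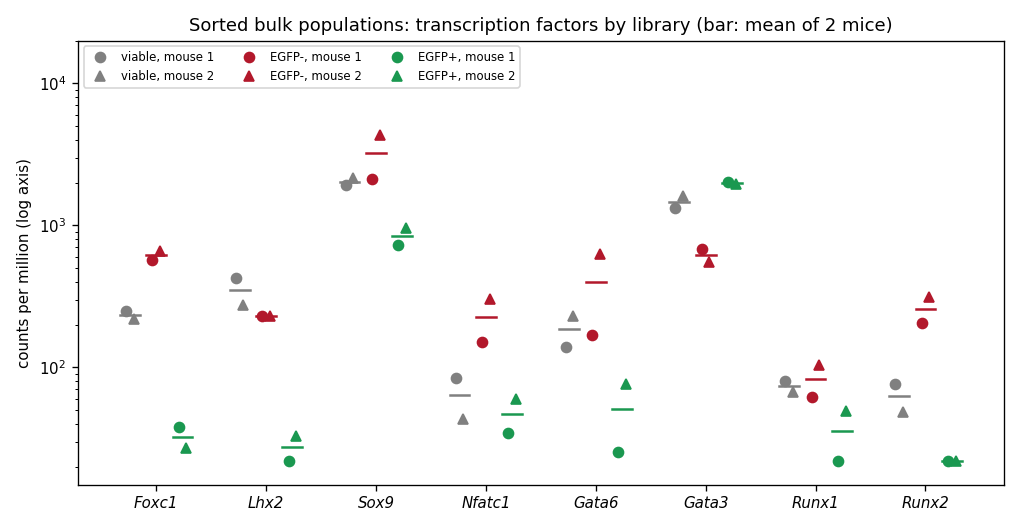
CPM (log axis) of the 8 transcription factors with a bulk row in each of the 6 libraries; circles are mouse 1, triangles mouse 2 and bars the mean of the 2 mice, with grey for viable, red for EGFP- and green for EGFP+ cells. EGFP+ cells are lowest for *Foxc1*, at 37.9 and 27.2 CPM, and for *Runx2*, at 22.1 and 21.8 CPM, while *Gata3* is highest in EGFP+ cells, at 2027 and 1956 CPM.

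Marker lists of other cells also differed between the sorted basal populations. Markers of basal interfollicular epidermis (IFE) were higher in EGFP+ cells, at 37696 and 38741 CPM against 27086 and 26695 in EGFP- cells. So were IFE differentiating markers, at 4795 and 4560 CPM against 2199 and 1526. Follicle and other lists went the other way. The summed level of 8 upper follicle markers with a row was 9100.0 and 4405 CPM in EGFP- cells against 884 and 1019 in EGFP+ cells, and that of 11 lower follicle markers was 16392 and 17899 against 11541 and 13435. The upper follicle gate markers *Krt79*, a keratin of the hair canal, and *Cst6*, a cysteine protease inhibitor, had log2 folds of -3.16 ± 0.39 and -3.36 ± 0.37. The lower follicle gate marker *Postn*, a matrix protein, had one of -0.66 ± 0.36, and *Cd34*, a bulge surface protein, had 0 counts in both EGFP- libraries. The T cell list (7 of 8 markers with a row) summed to 365 and 201 CPM in EGFP- cells and 9.47 and 5.45 in EGFP+ cells, with *Cd3e* at 4 and 6 counts against 1 and 0, and the Langerhans cell list to 1665 and 1609 against 123 and 119.9. Melanocyte (151 and 125 CPM against 9.47 and 16.3) and fibroblast markers (107 and 104 CPM against 6.31 and 21.8) and the 4 genes of removed wells (16179 and 23109 CPM against 9909 and 10956) were higher in EGFP- cells as well. The part of these cells in the bulk values of the listed genes was not tested, and in bulk libraries fewer cells of a type and less RNA per cell cannot be told apart.

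To place each gene in the follicle, wells were classed by 4 markers that are not among the 9. Wells with *Postn* or *Cd34* and neither *Krt79* nor *Cst6* were taken as lower follicle wells (136 in EGFP mice, 82 in traced mice), the reverse as upper follicle wells (139 and 135) and wells with none of the 4 as other wells (218 and 152). Wells with T cell transcripts (44 and 28) or Langerhans cell transcripts (62 and 4), and wells with markers of both follicle parts (81 and 28), were kept apart. Transcripts were summed over the wells of a class in each mouse, in 17 sums of at least 10 wells, and levels are CPM of the sum's transcripts. EGFP mouse 1 had 4 upper wells and so no upper sum. Median depth was 1751 to 2945 transcripts in lower wells, 2696 to 3992 in upper wells of these sums and 1662 to 3263 in other wells. The upper class also held interfollicular signal: in EGFP mice 3 and 4 its summed level of IFE differentiating markers (22244 and 16384 CPM) was above that of upper follicle markers (15064 and 12682), while in EGFP mouse 2 and the traced mice it was below (7463 to 11135 against 20658 to 26021). The part of this in the values of upper wells was not tested.

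**Figure D2:**
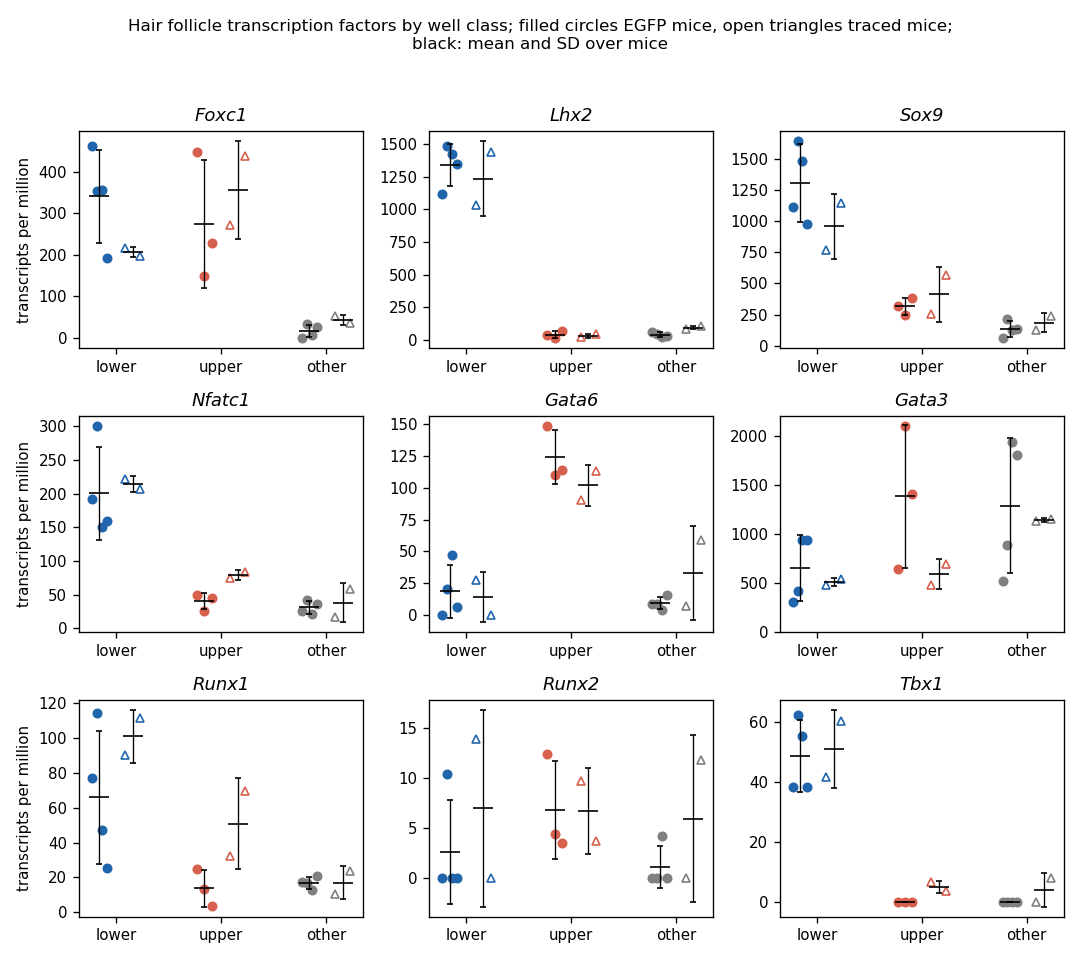
CPM of each of the 9 genes in lower, upper and other wells, 1 point per mouse (filled circles, EGFP mice; open triangles, traced mice), with the mean and SD over mice in black; the axes differ between genes. *Lhx2*, *Sox9*, *Nfatc1* and *Tbx1* are highest in lower wells, *Foxc1* is high in lower and upper wells, *Gata6* is highest in upper wells, and *Runx2* is near the level of 1 transcript everywhere.

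*Lhx2* and *Tbx1* marked the lower follicle most sharply. *Lhx2* stood at 1115, 1487, 1423 and 1346 CPM in lower wells of EGFP mice 1 to 4, at 37.2, 13.3 and 65.8 in upper wells of EGFP mice 2, 3 and 4 and at 61.4, 41.5, 16.8 and 31.4 in other wells of mice 1 to 4. Every lower sum lay above every upper and other sum, and upper and other wells overlapped. The log2 fold of lower over upper wells was 4.84 ± 0.54 (adjusted p = 4.97e-06, edgeR quasi-likelihood with Benjamini-Hochberg adjustment over 9651 genes) and that of lower over other wells 4.89 ± 0.49 (adjusted p = 1.25e-06). Over all 6 mice pooled, 163 of 218 lower wells held an *Lhx2* transcript (74.8%, exact 95% interval 68.5 to 80.4). The interval covers counting error only and not the spread between mice. Averaged over EGFP mice, the share of lower wells was 71.0% ± 14.9 (SD over 4 mice). The pooled share was 9.12% in upper wells, 8.38% in other wells and 2.78% in 72 T cell wells. T cells should lack *Lhx2*, and their wells had median depths of 1713 to 1970 transcripts. Langerhans wells, which should lack it too, held it in 15.2% of 66 wells (median depth 1357 to 3573), a share above that of upper and other wells. Of the 66 wells, 39 fell in the Langerhans cell-like cluster of the clustering, where the share was 5.13%. Another 5 and 1 fell in the lower HF-like clusters, so the Langerhans wells set no clear background. Whether the shares of upper and other wells are background was not tested.

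*Tbx1* was rarer. It stood at 38.4, 62.3, 55.3 and 38.4 CPM in lower wells of EGFP mice 1 to 4, with 0 transcripts in the upper and the other wells of these mice. This was 20 transcripts in 19 of 136 lower wells against 0 of 135 upper wells, at least 9.80-fold more in lower wells when 3 counts are taken as the floor over the upper group (adjusted p = 0.0165). Against 0 of 218 other wells, which allows a transcript in up to 1.38% of wells when 3 wells are taken as the floor and sets no limit on wells that express the gene, the level was at least 10.9-fold higher (adjusted p = 0.0152). Intervals and floors cover counting error only. *Tbx1* passed the filter on low counts only through the lower wells, where it is high, so its adjusted p are a description and not support. The traced mice had *Tbx1* in 13 of 82 lower wells and 3 of 135 upper wells.

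*Sox9* and *Nfatc1* were highest in lower wells but were not limited to them. *Sox9* stood at 1115, 1642, 1486 and 975 CPM in lower wells of EGFP mice 1 to 4, at 323, 243 and 381 in upper wells and at 61.4, 216, 126.03 and 136 in other wells. The 3 classes did not overlap, lower wells being highest and other wells lowest. Lower wells exceeded upper wells by a log2 fold of 1.85 ± 0.40 (adjusted p = 0.00997) and other wells by 2.99 ± 0.38 (adjusted p = 4.14e-05), while upper over other wells, at 1.14 ± 0.39, did not pass without the mouse as a block (adjusted p = 0.571) and passed with it, at 1.05 ± 0.25 (adjusted p = 0.00523). Over the other settings run, the adjusted p of this last comparison ranged from 0.00523 to 1.

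*Nfatc1* stood at 192, 301, 150.1 and 160.2 CPM in lower wells, 49.6, 26.5 and 45.0 in upper wells and 26.3, 41.5, 20.99 and 36.6 in other wells. Lower wells again lay above both other classes, which overlapped. The log2 folds were 2.13 ± 0.46 over upper wells (adjusted p = 0.00973) and 2.37 ± 0.44 over other wells (adjusted p = 0.00294). *Nfatc1* was in 16.7% of T cell wells over the 6 mice, beside 18.2% of upper wells and 8.11% of other wells, and its level was higher in T cell wells than in all non-immune wells in 3 of 5 mice.

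*Foxc1* was high in both parts of the follicle. It stood at 461, 353, 356 and 192 CPM in lower wells of EGFP mice 1 to 4, at 447, 150.3 and 229 in upper wells and at 0, 33.2, 8.40 and 26.2 in other wells. Lower and upper wells overlapped, and both lay above every other sum. Lower over other wells gave a log2 fold of 3.93 ± 0.51 (adjusted p = 4.46e-05) and upper over other wells 3.81 ± 0.52 (adjusted p = 0.000255). The difference between lower and upper wells was 0.12 ± 0.42 (adjusted p = 0.972), and it turned negative, to -0.74, when clusters replaced the marker gate. Over the 6 mice 40.4% of lower, 40.9% of upper and 6.22% of other wells held a transcript, against 4.17% of T cell wells. With a gate of 2 transcripts the mean share over EGFP mice was 48.7% of lower and 58.1% of upper wells (43.5% and 37.2% with 1), and over traced mice 38.1% and 59.6% (34.9% and 45.7%).

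*Gata6* was highest in upper wells. It stood at 149, 111 and 114 CPM in upper wells of EGFP mice 2, 3 and 4, at 0, 20.8, 47.4 and 6.41 in lower wells of mice 1 to 4 and at 8.77, 8.31, 4.20 and 15.7 in other wells. No lower or other sum reached an upper sum. The log2 fold of upper over other wells was 3.54 ± 0.72 (adjusted p = 0.0282), and that of lower over upper wells was -2.56 ± 0.69 (adjusted p = 0.0531), which passed with the mouse as a block at -2.50 ± 0.57 (adjusted p = 0.000494, range over all settings run 0.000494 to 0.386). The upper-over-other call was lost with the default gene filter of edgeR (adjusted p = 0.0509), without EGFP mouse 1, 3 or 4 (adjusted p = 0.0786, 0.253 and 0.190) and without the wells rich in those 4 genes of removed wells (adjusted p = 0.0718), and its adjusted p ranged from 3.49e-06 to 0.253 over all settings run. With a gate of 2 transcripts the mean share of upper wells with *Gata6* was 38.0% in EGFP mice (21.1% with 1). The study itself used *Gata6* to describe the upper follicle on these plates, so its place there is not independent evidence.

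*Gata3* was lowest in lower follicle wells within each mouse. It stood at 308, 416, 941 and 936 CPM in lower wells of EGFP mice 1 to 4, 646, 2104 and 1412 in upper wells and 527, 889.7, 1943 and 1802 in other wells. The classes overlapped between mice, with EGFP mouse 3 above mouse 2 and mouse 1 in lower and other wells. Lower against upper wells gave a log2 fold of -1.21 ± 0.47 (adjusted p = 0.279) and, with the mouse as a block, -0.96 ± 0.20 (adjusted p = 6.21e-05, range over all settings run 6.21e-05 to 0.869). Lower against other wells gave -1.18 ± 0.45 (adjusted p = 0.310) and, with the block, -1.23 ± 0.19 (adjusted p = 6.32e-09, range over all settings run 6.32e-09 to 0.609). Upper and other wells were within 0.03 ± 0.47 of each other on the log2 scale (adjusted p = 1). In the traced mice *Gata3* was lower in upper wells, at 485 and 698 CPM, than in other wells, at 1132 and 1157, with no overlap.

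*Runx1* stood at 76.9, 114, 47.4 and 25.6 CPM in lower wells, 24.8, 13.3 and 3.46 in upper wells and 17.5, 16.6, 12.6 and 20.9 in other wells. Every lower sum lay above every upper and other sum, yet the log2 fold of 2.24 ± 0.70 over upper wells did not pass (adjusted p = 0.121), nor did that of 1.53 ± 0.61 over other wells (adjusted p = 0.364). These sums held 23 *Runx1* transcripts in lower and 6 in upper wells.

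*Runx2* was rarely detected in follicle wells. The plates held 15 *Runx2* transcripts in 12 of 971 non-immune wells, and *Runx2* did not pass the filter on low counts of the comparisons between follicle parts. Over all 6 mice a transcript was found in 3 of 218 lower wells, 6 of 274 upper wells, 2 of 370 other wells and 8 of 72 T cell wells (11.1%, exact 95% interval 4.92 to 20.7). This interval and those below pool the mice and cover counting error only. In the mice with at least 10 T cell wells, 10 transcripts in 66 of these wells gave a level 11.5 times that of the 782 non-immune wells of the same mice (exact interval 4.50 to 28.3), and 8.30 times (1.87 to 29.8) without traced mouse 2, which held 6 of the 10. The T cell wells of traced mouse 2 also stood out by 30399.7 CPM of IFE differentiating markers (8 of 8 detected) beside 8248 CPM of T cell markers (7 of 8), against 197 to 248 and 12597 to 19639 CPM in the other 3 mice, and the part of this in the *Runx2* level was not tested. The level was higher in T cell wells in 5 of 5 mice, on 1 transcript in each of the EGFP mice 2, 3 and 4. No other gene of the 9 was higher in T cell wells in all 5 mice. Over the 6 mice *Runx2* stood at 4.51, 5.87 and 3.32 CPM in lower, upper and other wells and at 52.5 CPM in T cell wells. All of these lie below the 205 and 312 CPM of the bulk EGFP- libraries. The plates and the bulk libraries came from different sorts, so the plates do not place the bulk *Runx2* counts. How T cells bear on those counts was not tested.

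Of the 8 genes with enough transcripts to be tested, 4 were called higher in lower than in upper wells of EGFP mice (*Lhx2*, *Tbx1*, *Sox9* and *Nfatc1*) and 0 were called lower (1.03% and 0.819% of all 9651 genes tested were called in these directions). Since *Tbx1* entered the test only through its lower wells, its calls here and against other wells are a description. With the mouse as a block, *Gata6* and *Gata3* were added on the upper side, making 4 and 2 (2.63% and 2.43% of all genes). Against other wells, 5 of the 8 were called higher in lower wells (1.20% of all genes) and 0 higher in other wells (0.238%), where the block added *Gata3* (2.13%). In upper against other wells, 2 were called higher, *Foxc1* and *Gata6* (0.228%), and the block added *Sox9* (0.850%). The median log2 fold of the 8 was 1.99 for lower over upper wells, against -0.08 over all genes.

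The number of calls rested on single mice. Without EGFP mouse 3, the lower-over-upper comparison called 1 of the 8 (*Lhx2*), and without EGFP mouse 4 it called 2. Calls over all genes fell as well, from 178 to 60 of 9244 genes without mouse 3 and to 80 of 8933 without mouse 4. *Lhx2* was called in all 21 alternatives run for this comparison.

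In the traced mice, which are other animals, *Lhx2* again stood far higher in lower wells, at 1030.1 and 1438 CPM, than in upper wells, at 19.4 and 40.2, or other wells, at 84.1 and 102. Its log2 fold of lower over upper wells was 5.23 ± 0.67 (adjusted p = 5.91e-05), and it was the only 1 of the 8 called (0.570% of all genes were called higher in lower and 0.383% higher in upper wells). *Lhx2* itself was not called without traced mouse 1 (adjusted p = 0.0738) or without traced mouse 2 (adjusted p = 0.0665).

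*Sox9* and *Nfatc1* were again higher in lower wells and *Gata6* in upper wells of both traced mice. *Sox9* stood at 772 and 1145 CPM in lower wells against 255 and 571 in upper wells, and *Nfatc1* at 223 and 207 against 74.4 and 84.0. *Gata6* stood at 27.8 and 0 in lower against 90.5 and 113 in upper wells. *Foxc1* was lower in lower than in upper wells of both mice, at 216 and 198 against 272 and 439, and so was *Gata3*, at 480.1 and 542 against 485 and 698, though its values overlapped between the mice. *Runx1* stood at 90.4 and 112 in lower and 32.3 and 69.4 in upper wells, and *Tbx1* at 41.7 and 60.2 in lower and 6.47 and 3.65 in upper wells, 9.72 times more by counts (exact interval 2.67 to 53.2).

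With the mouse as a block, 4 of the 8 were called in the traced mice: *Lhx2*, *Sox9* (1.16 ± 0.26, adjusted p = 0.000529) and *Nfatc1* (1.32 ± 0.43, adjusted p = 0.0493) as higher in lower wells (2.21% of all genes) and *Gata6* (-2.76 ± 0.74, adjusted p = 0.00652) as higher in upper wells (2.16%). Without the block their adjusted p were 0.498 for *Sox9*, 0.370 for *Nfatc1* and 0.217 for *Gata6*, and over all settings run they reached 1. The difference between the experiments was itself tested, and 0 of 9651 genes (0%) were called by edgeR, with 260 genes at an unadjusted p under 0.05, 0 in DESeq2 and 8 with the block, none of the latter among the 9. Among the 8, differences of traced minus EGFP mice were -1.36 ± 0.95 for *Runx1* and -1.01 ± 0.69 for *Foxc1*; that of *Tbx1* depends on the prior count, since its upper wells of EGFP mice held 0 transcripts. With 2 traced mice such differences were not resolved.

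**Figure D3:**
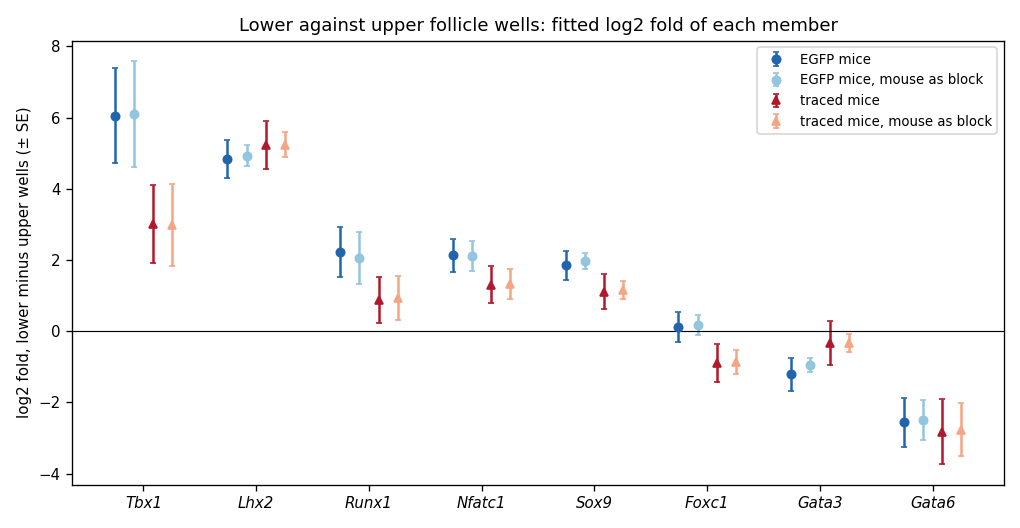
Fitted log2 fold of lower over upper follicle wells (± SE) for the 8 genes tested, in EGFP mice (circles) and traced mice (triangles), without and with the mouse as a block (pale). *Lhx2* is at 4.84 and 5.23, *Foxc1* crosses 0 between experiments (0.12 and -0.89) and *Gata6* is below 0 in each (-2.56 and -2.82); the value of *Tbx1* in EGFP mice depends on the prior count, since its upper wells held 0 transcripts.

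Shares of wells depend on depth, so each well was also thinned to 1000 molecular barcodes, leaving out 4 shallower wells. The marker gate was then applied again to the thinned counts, so a class held different wells before and after thinning. A changed share can follow this change of wells as well as depth, and these cannot be told apart here. In EGFP mice the thinned share of *Lhx2* was 64.7% ± 15.8 (SD over 4 mice) in lower wells, 7.22% ± 4.93 (3 mice) in upper wells and 5.83% ± 2.73 (4 mice) in other wells, and before thinning these were 71.0%, 11.9% and 7.13%. *Foxc1* was in 32.9% ± 10.8 of lower, 36.9% ± 11.9 of upper and 3.48% ± 2.52 of other thinned wells. *Gata6* was in 21.9% ± 1.73 of upper and 0.658% ± 1.32 of lower thinned wells. *Tbx1* was in 7.89% ± 0.532 of lower thinned wells and in 0% of the others. *Runx1*, in 13.8% of lower and 4.72% of upper wells before thinning, was in 6.97% ± 5.97 and 6.23% ± 4.25 of thinned wells, a difference far within the spread between mice. *Foxc1* thus stood in slightly more upper than lower thinned wells, within the spread between mice, and its level was higher in lower than in upper wells in 1 of the 3 EGFP mice with both.

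A grouping that used neither the 9 genes nor the 4 gate markers gave a finer picture of the wells. The wells of all 6 plates were clustered into 12 groups, and the genes of the 9 took no part. Both lower HF-like clusters (194 and 52 wells, led by *Angptl7*, *Ctgf* and *Krt24* and by *Fgf18*, *Krt6a* and *Pdzrn3*) held *Lhx2* in 94.3% and 96.2% of wells, *Sox9* in 90.7% and 82.7%, *Foxc1* in 50% and 61.5%, and *Tbx1* in 18.6% and 21.2%. The upper HF-like cluster (66 wells, led by *Sprr1a*, *Klk7* and *Teddm3*) held *Foxc1* in 81.8%, *Sox9* in 81.8% and *Gata6* in 62.1% of wells, with *Lhx2* in 6.06%; it also had 4 IFE differentiating markers raised. An unnamed cluster of 139 wells led by *Aldh3a1*, *Igfbp4* and *Acsl4* held *Foxc1* in 52.5%, *Sox9* in 58.3% and *Gata6* in 25.9%, and took more of the upper wells of the gate (69 of 274) than the upper HF-like cluster did (59).

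*Gata3* ran the other way across the clusters. It was in 85.9% of the wells of the IFE basal-like cluster (163 wells) and in 95.05% and 98.0% of the 2 IFE differentiating-like clusters (101 and 49 wells), against 46.9% and 26.9% in the lower HF-like clusters and 43.9% in the upper HF-like cluster. Nearly all wells of the IFE basal-like and the smaller IFE differentiating-like cluster came from EGFP mouse 2 and the traced mice, and nearly all of the larger from EGFP mice 3 and 4, so mouse and cluster cannot be told apart among these 3. The gate put 43 and 16 upper wells into the IFE differentiating-like clusters and 39 into the IFE basal-like cluster. When clusters replaced the gate, the log2 fold of *Gata3* for lower over upper wells in EGFP mice moved from -1.21 to 0.25 and that of upper over other wells from 0.03 to -2.67. That setting had a single upper sum in EGFP mice, of mouse 4, which is assumed to vary like the other groups, and the part of interfollicular wells in the *Gata3* level of the upper gate was not tested. The T cell-like cluster (72 wells) held *Runx2* in 11.1% and *Gata3* in 33.3% of wells.

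**Figure D4:**
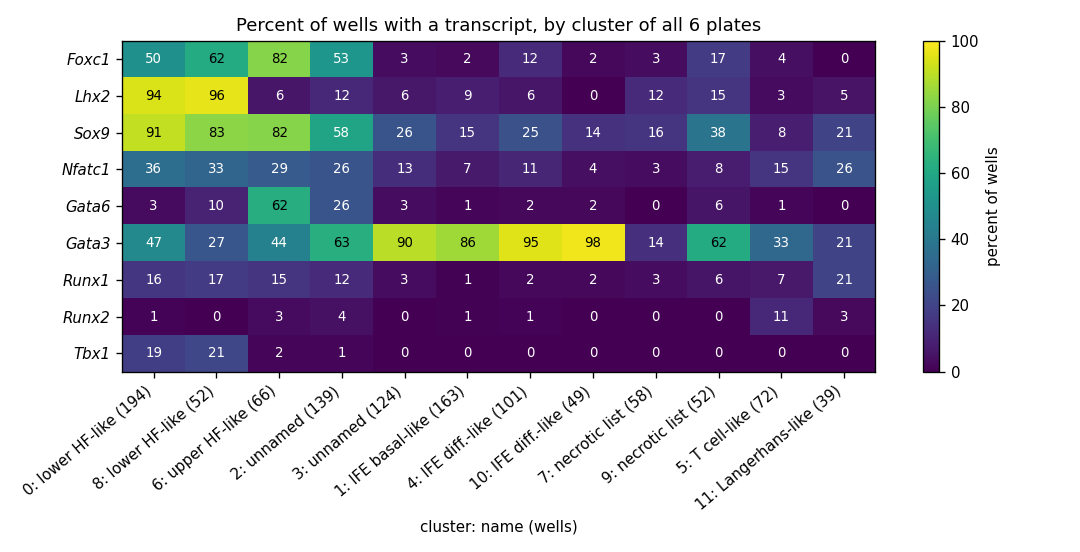
Percent of wells with at least 1 transcript of each of the 9 genes in the 12 clusters of all 6 plates, with the number of wells in brackets; colour runs from 0 (dark) to 100 (yellow). *Lhx2* is in 94.3% and 96.2% of the lower HF-like wells, *Foxc1* is highest in the upper HF-like cluster (81.8%) and *Gata3* is highest in the IFE differentiating-like clusters (95.05% and 98.0%).

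The genes overlapped within single wells in the same pattern, described here with no test because wells of a plate share a library and differ in depth. The 971 non-immune wells include the 109 with markers of both follicle parts, and whether these held single cells was not tested. Among the 971, 47 of the 50 wells with *Tbx1* also held *Lhx2* (94%), against 26.2% of the wells without *Tbx1*. *Sox9* was in 49 of the 50. Of the 288 wells with *Lhx2*, 81.6% held *Sox9*, 49.0% *Foxc1* and 7.29% *Gata6*. Of the 98 wells with *Gata6*, 75.5% held *Foxc1* against 23.4% of wells without it, and 21.4% held *Lhx2* against 30.6%. *Gata3* was in 50.3% of the wells with *Lhx2* and in 71.9% of the wells without it. *Foxc1* was thus in 141 of the 288 wells with *Lhx2* and 74 of the 98 with *Gata6*, while *Lhx2* and *Gata6* shared 21.

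**Figure D5:**
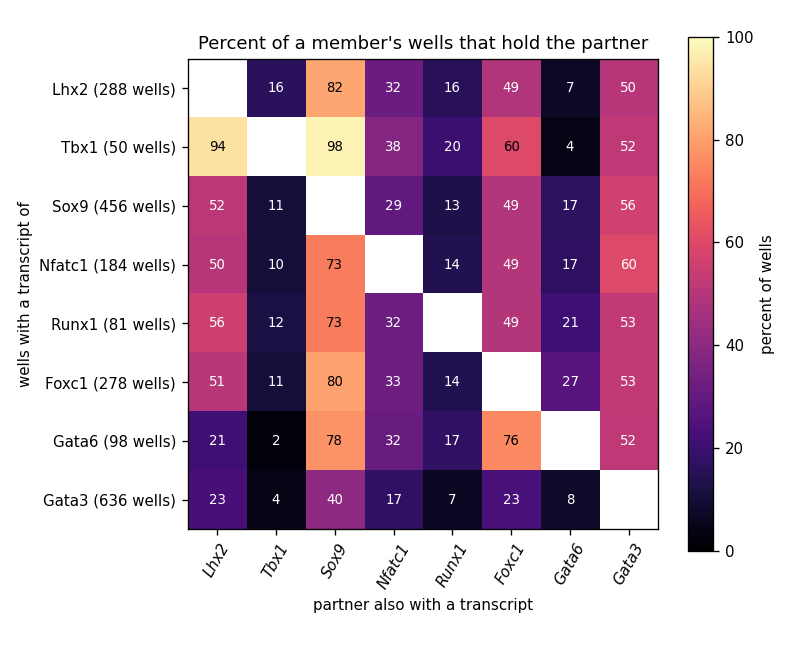
Percent of the wells with a transcript of the gene in the row that also held the gene in the column, over 971 non-immune wells of 6 plates. Wells with markers of both follicle parts are included. *Runx2*, with 12 wells, is left out. The row of *Tbx1* reads 94% for *Lhx2* and 98% for *Sox9*, and the row of *Gata6* reads 75.5% for *Foxc1* and 21.4% for *Lhx2*.

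The genes most like each of the 9 were taken as the 3 with the highest Pearson correlation of log2(CPM + 10) over the 17 sums, among 3242 genes with a mean of at least 50 CPM. The sums share plates, depth and the marker gate, so the values are a description. *Lhx2* was most like *Cd34* (r = 0.967), *Postn* (0.967) and *Col8a2* (0.964), and *Tbx1* like *Cd34* (0.968), *Postn* (0.965) and *Tgm5* (0.964). *Sox9* and *Nfatc1* had *Timp2* (0.957 and 0.927) and *Ank* (0.945 and 0.928) in common. *Foxc1* was most like *Krt17* (0.903), *Tcf4* (0.873) and *Efnb2* (0.870), *Gata6* like *Egr2* (0.882), *Defb6* (0.840) and the gate marker *Cst6* (0.838), and *Gata3* like *Clca2* (0.921) and *Bcl11b* (0.857). The gene most like *Runx1* was *Nfatc1* (0.870). *Runx2* was seen in 9 of the 17 sums with few transcripts, and its nearest gene, *Tmem9b* (0.805), is given for completeness.

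The 9 were set beside other transcription factors known from the follicle, a list of 24 genes of which 20 were tested in the plates. In lower against upper wells of EGFP mice edgeR called 3 as higher in lower wells (1.03% of all genes were): *Id2*, an inhibitor of basic helix-loop-helix factors (2.49 ± 0.43, adjusted p = 0.00137), *Tcf7l2*, a Wnt effector (2.07 ± 0.46, adjusted p = 0.0132), and *Nfib*, a nuclear factor I protein of the bulge (1.49 ± 0.31, adjusted p = 0.00823). *Foxq1*, a forkhead factor of the hair shaft, was called in DESeq2 and with the mouse as a block, and *Hes1*, a Notch target, with the block; without it they stood at -1.74 ± 0.48 and -1.77 ± 0.49 (adjusted p = 0.0632 for each). The list's median was 0.88, against -0.08 over all genes. Against other wells these 3 and *Vdr*, the vitamin D receptor, were higher in lower wells (1.78 ± 0.43 for *Vdr*, adjusted p = 0.0283; 1.20% of all genes), and *Foxq1* was lower (-1.97 ± 0.46, adjusted p = 0.0231; 0.238% of all genes), and the block added *Barx2*, *Foxp1* and *Hes1*. In the traced mice, where 0.570% and 0.383% of all genes were called higher and lower in lower than in upper wells, *Id2* was higher (2.52 ± 0.51, adjusted p = 0.00994) and *Foxq1* lower (-2.96 ± 0.72, adjusted p = 0.0423) in lower than in upper wells; the block added *Nfib* and *Sox21*, and DESeq2 added *Nfib*. In upper against other wells of EGFP mice 0 of the 20 were called by edgeR, with or without the block, or by DESeq2, with *Vdr* alone at an unadjusted p under 0.05.

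In the bulk libraries 13 of the 24 were tested, and *Sox21*, an HMG-box factor of the hair shaft cuticle, was called as higher in EGFP+ than in EGFP- cells (2.62 ± 0.33, adjusted p = 3.50e-05). With the mouse as a block *Barx2* and *Vdr* were called too; without it they stood at -1.41 ± 0.46 and -1.05 ± 0.32 (adjusted p = 0.0740 and 0.0546). The median log2 fold of the 13 was -0.30, against -0.04 over all genes and -2.74 for the 8 listed genes, whose choice fixed theirs. Of 23 relatives and partners of the 9 (other FOXC, LHX, SOX, NFAT, GATA, RUNX and T-box genes and the cofactors *Ldb1*, *Cbfb*, *Zfpm1* and *Zfpm2*), 7 were tested in the plates and 4 in bulk, and 0 were called in any comparison by edgeR or DESeq2. The cofactor *Cbfb*, which RUNX proteins bind, had a log2 fold of 0.35 ± 0.37 in lower over upper wells and -0.43 ± 0.32 in EGFP+ over EGFP- cells. The cofactor *Ldb1*, which LHX2 binds, had -0.43 ± 0.63 and 0.77 ± 0.33 in the same comparisons. An unadjusted p under 0.05 was seen for *Nfatc2* in 3 comparisons (-2.88 ± 0.90 in lower over upper wells of EGFP mice, called with the mouse as a block), for *Sox6* in 1 and for *Ldb1* in bulk.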

How the data were processed

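Bulk CEL-Seq2 libraries of 3 sorted populations from each of 2 mice and SORT-seq plates of 6 mice were used; both methods read the 3′ end of transcripts, so levels do not scale with gene length. The deposited bulk values are raw counts of each gene; the study calls them read counts, and whether molecular barcodes were collapsed is not given in the sources used here. Those of the plates are transcript numbers that the authors estimated by correcting the molecular barcodes seen in each well for repeated draws; the values turn back into whole numbers for 4096 possible barcodes (6 bases), whereas the labels name a barcode of 4 bases. The submitters' processing notes name BWA 0.6.2-r126 and the builds mm10, GRCm38 and, for some bulk records, hg19; the counting tool and annotation are not given in the sources used here.

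Rows of spike-ins and mitochondrial genes were left out. Wells of at least 1000 transcripts were classed by at least 1 transcript of the gate markers, after removing wells with at least 2 transcripts over *Cd3d*, *Cd3e*, *Cd3g* and *Cd7* (T cell) or at least 1 of *Cd207* or *Csf1r* (Langerhans cell). Sums per mouse and class (at least 10 wells, rounded) and bulk counts were fitted in edgeR 4.0.16 (R 4.3.3; TMM, filterByExpr, with min.count 3 and min.total.count 10 for the sums, quasi-likelihood F test, Benjamini-Hochberg at 0.05 over all genes, two-sided), with 1 mean per class and experiment. SEs follow from the fold and its F. DESeq2 1.42.0, other gates, filters and depths, clusters (Seurat 5.3.0, sctransform 0.4.2, 20 principal components, resolution 0.8), the mouse as a block and leaving out each mouse or library were alternatives. No doublet caller was run; wells with both gate pairs stood apart.

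The 9 genes, the gene lists and the named genes (the 9, the gate markers, the list genes that passed and the 3 most similar genes) were chosen with earlier results of these data known. Columns and classes of a number come from 1 mouse, which pairs them: deviations from the group means correlated by 0.374 to 0.625 between classes of an EGFP mouse, by 0.0666 to 0.157 in traced mice and by 0.0380 to 0.0765 in bulk. Replicates of a bulk population differed beyond sampling noise (chi-square per degree of freedom 1.53 to 5.61). Tested on simulated data, the lower-against-upper comparison of EGFP mice found 27% of genes changed 4-fold and 89% of those changed 16-fold, and that of traced mice 0.5% and 76%. The simulation used a fixed dispersion, no correlation between classes of a mouse and changes only among the more abundant genes. Its rates describe that setting and need not hold for these sums or for sparse genes. Sequences are from RefSeq, GRCm38.p6; promoter windows were matched for 6 of the 9 and protein sequences were not used here. A result for 1 of the similar genes is not reported here.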

Additional observations from a re-analysis of the deposited data

Results flagged for a closer look

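Among 34 groups of 4 samples, 4 values of *Runx2* lay further from the other mice than Dixon's 95% limit allows, and chance flags about 1 in 20 groups. In lower wells, EGFP mouse 2 stood at 10.4 CPM and 2.70% of wells, with 0 in the other mice. In other wells, EGFP mouse 3 stood at 4.20 CPM and 1.43% of wells, again with 0 in the other mice. Each of these values is 1 transcript in 1 well, and its CPM and its share of wells count the same transcript. A group with a single value above 0 always passes the limit, so the rate of 1 in 20 does not apply to these groups.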

How the results depend on the processing

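Calls among the 8 testable genes in lower against upper wells of EGFP mice moved from 4 to 2 when clusters replaced the gate (1 upper sum, of 11 wells in mouse 4), where *Lhx2* was called and *Gata6* joined on the upper side, and to 5 with a gate of 2 transcripts, with wells of both pairs given to the larger and with no filter on low counts, and ranged from 1 to 5 when a mouse was left out. In upper against other wells they moved from 2 to 1 in DESeq2, where *Gata6* got no adjusted p, with the default filter of edgeR and without wells over 10% of *Mir1950*, *Kcnq1ot1*, *Lipi* and *Mid1* (chosen after seeing the data), rose to 3 with clusters (*Sox9* added), and were 1 to 2 when a mouse was left out. In lower against other wells they ranged from 4 to 6. In traced mice they moved from 1 to 2 with clusters (*Gata6* added) and to 4 with the replicate block (the mouse), and were 0 to 1 when a mouse was left out. The replicate block also added *Gata6* and *Gata3* to lower against upper wells, *Gata3* to lower against other wells and *Sox9* to upper against other wells, and changed no other call among the 8. The cause of these moves was not tested.

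Over all genes, 323 bulk calls became 140 in DESeq2 (16180 genes, with its own filter), 188 with the EGFP+ and EGFP- libraries alone, 459 with the replicate block and 143 to 727 when a library was left out. In lower against upper wells 178 calls ranged from 107 (clusters) to 489 (replicate block), and from 60 to 191 when a mouse was left out. In lower against other wells 139 calls ranged up to 533 and down to 56, in upper against other wells 22 calls from 9 to 111, in traced mice 92 calls from 5 to 421, and in the difference between experiments 0 to 8.

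Log2 folds changed sign as follows. *Foxc1*, lower against upper wells, became -0.28 with a gate of 2 transcripts and -0.74 with clusters, and was -0.28 to 0.45 when a mouse was left out (lowest without EGFP mouse 3). With clusters *Gata3* became 0.25 in lower against upper wells of EGFP and of traced mice, -2.67 in upper against other wells and -0.0011 in the difference between experiments, and *Runx1* became -0.26, 2.62 (upper against other wells) and 1.78 (difference between experiments). *Gata3* in upper against other wells also became -0.12 with no minimum of wells, -0.34 with a gate of 2, -0.036 without the wells rich in those 4 genes, -0.27 with the replicate block and -0.18 to 0.22 when a mouse was left out (-0.18 without EGFP mouse 1 and -0.14 without mouse 3). *Lhx2* in upper against other wells became -0.0079 with the default filter, -0.083 with no minimum of wells, -0.13 with wells of 500 transcripts and -1.03 (without EGFP mouse 4) to 0.50 when a mouse was left out. *Gata6* in lower against other wells was -0.36 (without EGFP mouse 3) to 1.80 when a mouse was left out, and *Runx1* in upper against other wells 0.46 when wells with both pairs went to the larger. In the difference between experiments *Lhx2* became -0.75 under that rule and -0.53 (without EGFP mouse 4) to 0.93 when a mouse was left out, and *Gata6* 0.19 with a gate of 2, 0.30 with clusters and -4.53 (without traced mouse 1) to 0.81 (without EGFP mouse 3) when a mouse was left out, with 0.63 without traced mouse 2. None of these signs belonged to a call before the change.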

Other observations

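The wells set apart because they held markers of both follicle parts, 81 in EGFP mice and 28 in traced mice, were in no sum of the comparisons. Over the 6 mice *Lhx2* was in 63.3% of these 109 wells and stood at 991 CPM, *Sox9* was in 76.1% and stood at 1138, *Foxc1* in 50.5% at 370.2, *Nfatc1* in 31.2% at 180.2 and *Tbx1* in 12.8% at 36.5. *Gata6* was in 7.34% of them, against 23.4% of upper and 4.13% of lower wells. By cluster, 47 of the 109 fell in the larger lower HF-like cluster and 6 in the upper HF-like cluster. No doublet caller was run, and whether these wells held 2 cells was not tested.

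A further unnamed cluster of 124 wells, nearly all of EGFP mice 1, 3 and 4 and most of mice 3 and 4, and led by *Slc6a4*, *Ccrl1* and *Slc27a3*, held *Gata3* in 89.5% of wells and *Foxc1*, *Lhx2* and *Gata6* in 3.23%, 6.45% and 3.23%. The Langerhans cell-like cluster (39 wells) held *Runx1* in 20.5% of wells, beside 15.98% in the larger lower HF-like cluster, and no *Foxc1* or *Tbx1*. On average 2.25 to 3.35 of the 9 genes were detected in a lower well of a mouse, 1.81 to 2.54 in an upper well and 0.527 to 1.49 in an other well; in EGFP mouse 1, where genes of the wells removed by the study were high, 33 of 55 other wells held none.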
